A study of Homo sapiens with 6 samples.

Results

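Heat shock chaperones of the cytosol and mitochondria were examined in T24 cells, an established bladder cancer (Bca) line, after transfection of siRNAs against circ235, a circular RNA made from exons of CCNY. The members were 34 named genes: the heat shock factor HSF1, HSP70 and HSP110 proteins, HSP90 proteins, a small heat shock protein, HSP60 and HSP10, a collagen chaperone, HSP40 proteins, co-chaperones and the CCT chaperonin. All 34 were found by symbol among the 58288 gene identifiers of the count table, and 32 of them passed the filter on low counts, out of 14415 genes that passed it. The exceptions, HSPA1A and HSPA1B, are described below with their counts.

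The 3 conditions had 2 libraries each, labelled as biological replicates: T24 cells that received a control siRNA (NC), T24 cells that received the first siRNA (si-circ235-1) and T24 cells that received the second (si-circ235-2). All libraries came from 1 cell line under transient transfection, poly(A)+ RNA was sequenced with no record of strand, and no agent other than the siRNAs is named in the labels. The libraries held between 15373992 and 19912893 counts. The level of circ235 itself is not measured by these counts, since circular RNAs lack the tail that the oligo dT beads capture, so the labels could not be checked against the silenced target. In bulk RNA, a change in the share of cells that express a gene cannot be told apart from a change in RNA per cell.

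All 6 epithelial markers were detected, and KRT7, KRT8 and KRT18 were abundant in every library (619 to 2307 CPM, counts scaled to the size of the library), whereas EPCAM stayed between 1.28 and 2.93 CPM. CDH1, which encodes E-cadherin, had 0 to 6 counts per library, and KRT19 had 1 count in all. The list, led by KRT18, summed to 5560 and 3895 CPM in NC, 4588 and 4258 CPM in si-circ235-1 and 3638 and 3053 CPM in si-circ235-2. KRT18 itself was lower with si-circ235-2 than with si-circ235-1 (log2 fold change -1.10, adjusted p = 0.008), and not called without si-circ235-1 replicate 2 (-1.10, adjusted p = 0.0566). In that comparison KRT8 (0.39) and EPCAM (0.19) were above 0 and not called, KRT8 being called with library totals (0.72, adjusted p = 0.0141). KRT7 was lower under si-circ235-2 than in NC (-0.76, adjusted p = 0.026), a call lost without NC replicate 1 (-0.54, adjusted p = 0.206) or either si-circ235-2 library (adjusted p = 0.0513 and 0.111) and near 0 once the dependence on transcript length and GC was taken out (-0.03). All 5 mesenchymal markers were detected, with sums of 1625 and 1502, 1808 and 2189, and 1944 and 1621 CPM. Between the siRNAs 1 of the 5, VIM, was lower with si-circ235-2 (-1.21, adjusted p = 0.0033), and 3 were higher, namely FN1 (1.91, adjusted p = 0.000391), CDH2 (0.86, adjusted p = 0.0261) and CD44 (0.80, adjusted p = 0.0111), where 39.7% of all genes were called. The calls of CDH2 and CD44 were lost without either si-circ235-1 library (adjusted p = 0.0676 to 0.111), without si-circ235-2 replicate 1 (adjusted p = 0.094 and 0.0668) and once the dependence on transcript length and GC was taken out (0.36 and 0.19), and that of CDH2 also without si-circ235-2 replicate 2 (adjusted p = 0.0772) and by DESeq2 (adjusted p = 0.0803). Against NC with si-circ235-2, 2 of the 5 were called higher, where 31.4% of all genes were called. These were FN1 (1.39, adjusted p = 0.00182) and CDH2 (0.90, adjusted p = 0.0275). The value of FN1 ran from 0.785 to 1.63 over the 14 alternative settings tried. This call of CDH2 was lost without any 1 NC or si-circ235-2 library (adjusted p = 0.0813 to 0.117), by DESeq2 (adjusted p = 0.0621) and with length and GC taken out (0.38).

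Of 7 urothelial differentiation genes 6 were detected, led by PPARG and with UPK3A at 0, and they summed to 27.5 and 25.8 CPM in NC, 42.4 and 50.5 CPM in si-circ235-1 and 54.2 and 54.7 CPM in si-circ235-2. PPARG alone made up 23.2 and 22.6, 39.5 and 45.9, and 49.2 and 51.1 CPM of these sums. UPK1A, UPK1B and UPK2 had 1 to 15 counts per library and were not tested, and GATA3 had 1 to 20. FOXA1 (-0.04 and 0.61) and GATA3 (0.91 and 0.19) were not called under si-circ235-1 and si-circ235-2 in the fit reported. PPARG was called higher under si-circ235-1 (0.90, adjusted p = 0.0264) and si-circ235-2 (1.13, adjusted p = 0.0031). Its call under si-circ235-1 was lost without any 1 NC or si-circ235-1 library (adjusted p = 0.0528 to 0.205) and with library totals (adjusted p = 0.0512). The leukocyte genes PTPRC and CD3E were at 0 in every library, and the 5 endothelial genes, led by CDH5, summed to between 0.55 and 2.68 CPM. CD14, the most abundant of the 5 leukocyte genes, was at 2.82 and 2.87 CPM in NC, 11.0 and 9.94 CPM in si-circ235-1 and 2.12 and 1.72 CPM in si-circ235-2. It was called higher under si-circ235-1 (1.87, adjusted p = 0.0104), though not without NC replicate 1 (adjusted p = 0.061) or si-circ235-1 replicate 2 (adjusted p = 0.144), and lower with si-circ235-2 than with si-circ235-1 (-2.44, adjusted p = 0.000526). The part of these marker differences in the chaperone results was not tested.

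Chaperones bind unfolded stretches of other proteins and keep them from aggregating while they fold. HSP70 holds clients in cycles of ATP use that HSP40 (J-domain) proteins start and exchange factors such as HSP110 end. HSP90 takes over many kinases and steroid receptors from HSP70 with the help of co-chaperones, and the ring-shaped CCT complex folds actin and tubulin. HSF1 is the transcription factor that raises many of these genes after heat or other protein damage, by binding inverted GAA repeats in their promoters called heat shock elements. Tumour cells commonly carry high levels of several chaperones.

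RefSeq promoter windows on GRCh38.p14, from 250 bases before to 50 bases after each start, were available for 31 of the 34 genes. A heat shock element of 3 alternating units, spelled TTCNNGAANNTTC and searched on both strands, was found in the windows of 7 of these 31 genes, beside 166 of the 27303 genes with a window in the whole table (0.608%). Each such element also contains the shorter words TTCNNGAA and GAANNTTC, of which at least 1 was found in 17 of the 31 genes and in 16.2% of all genes. The 3-unit stretches are shown because they mark the members with the fullest match to the HSF1 binding sequence. Capitals mark the TTC and GAA units, and every stretch is written 5′ to 3′ on the strand of its gene. Where a gene had more than 1 match, the match nearest its start is printed, and the HSPD1 match precedes the second of its RefSeq starts, at chr2:197499840, inside the gene as read from the first.
HSPA8 (chr11:123062172-123062198, minus strand): gggccccTTCtgGAAggTTCtaagata
HSP90AA1 (chr14:102087113-102087139, minus strand): agggttcTTCcgGAAggTTCgggaggc
HSP90AB1 (chr6:44247824-44247850, plus strand): gagattgTTCtgGAAgcTTCtggattc
HSPD1 (chr2:197500061-197500090, minus strand): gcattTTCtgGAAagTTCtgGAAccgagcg
SERPINH1 (chr11:75562170-75562196, plus strand): tccaactTTCcaGAAgtTTCtcgggac
DNAJA1 (chr9:33025269-33025295, plus strand): ccgggcgGAActTTCcaGAAcgctcgg
DNAJB6 (chr7:157336866-157336892, plus strand): gagccgaGAAccTTCgcGAAggtgggg

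HSPB1, whose level is described below, held the shorter word GAANNTTC, and its stretch is printed for that reason.
HSPB1 (chr7:76302484-76302505, plus strand): aacgagaGAAggTTCcagatga

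HSPD1 and HSPE1, which encode HSP60 and HSP10, lie head to head, and their RefSeq starts at chr2:197500274 (minus strand) and chr2:197500379 (plus strand) are 105 bases apart. The sequence between them is shown on the plus strand because both genes start from this stretch. Capitals mark the start base of HSPD1 on the left and of HSPE1 on the right. Neither shorter word was found between the starts, and 74.5% of these bases were G or C.
HSPD1-HSPE1 (chr2:197500264-197500389, plus strand): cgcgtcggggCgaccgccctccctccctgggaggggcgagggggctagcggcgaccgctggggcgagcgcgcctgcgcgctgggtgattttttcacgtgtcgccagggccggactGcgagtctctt
A match is a description of letters in the window and not of binding, and a window without a match says nothing about HSF1.

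The 34 genes together took 1.07% and 1.25% of all counts in NC, 1.39% and 1.23% in si-circ235-1 and 1.37% and 1.36% in si-circ235-2. After scaling of the libraries by trimmed mean of M values (TMM), their summed level was 11980 and 12120 CPM in NC, 15130 and 13680 CPM in si-circ235-1 and 12390 and 11380 CPM in si-circ235-2. Both si-circ235-1 libraries lay above the other 4. Per kilobase of exon, with all annotated exons of a gene merged, HSP90AB1 was the highest member in NC (483 ± 49.8 CPM per kb, mean ± SD, n = 2), followed by HSPA8 (352 ± 25.3) and HSPB1 (248 ± 86.0). HSPB1 did not differ from CCT7, the next in order (185 ± 26.6), beyond their spread. At the low end were DNAJB4 (1.67 ± 0.0127), DNAJA3 (3.66 ± 1.24) and SERPINH1 (5.19 ± 0.0826). The order at the top depends on the length used. Merged exons span 4849 nt for HSPA8 and 2980 nt for HSP90AB1, while their longest transcripts are 2463 and 2674 nt. In CPM, without division by length, HSPA8 lay above HSP90AB1 in NC (1706 ± 123 and 1439 ± 148 CPM). The libraries of a condition differed by more than counting error for every condition.

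**Figure D1:**
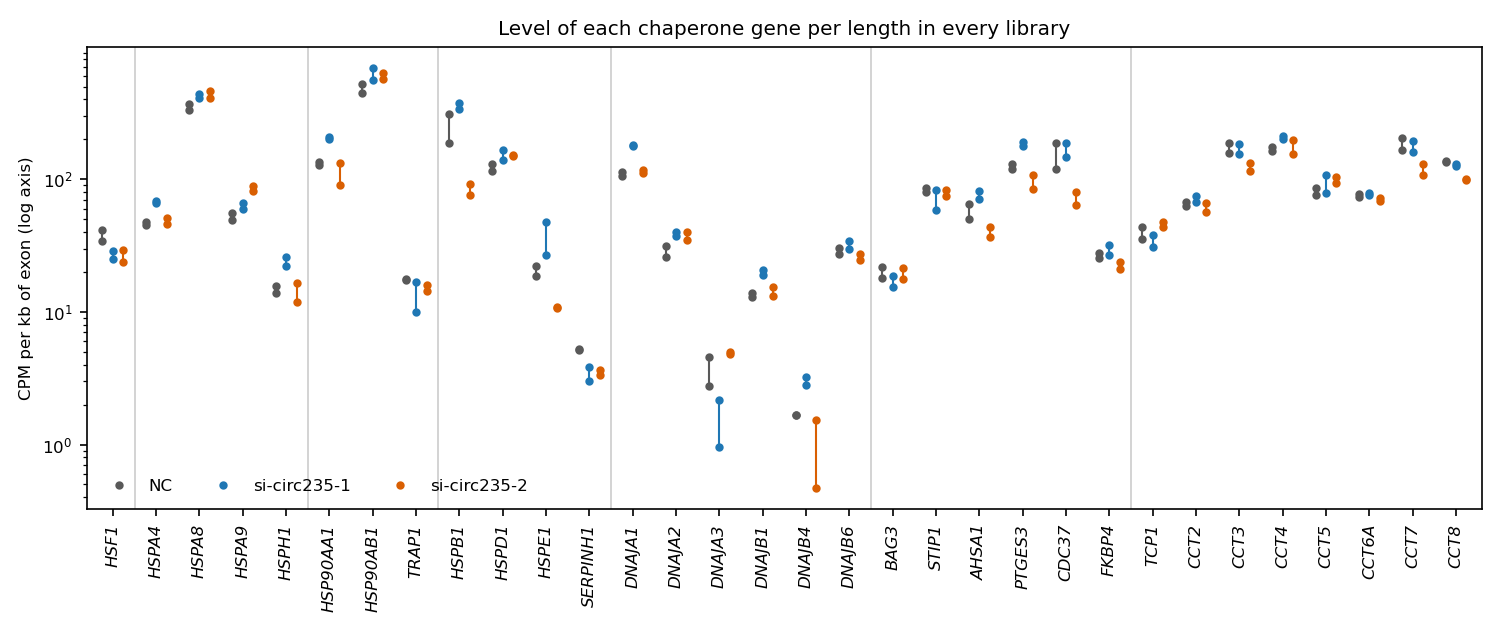
Level of each of the 32 tested chaperone genes in every library, as TMM-scaled CPM per kilobase of merged annotated exons on a log axis. Points are libraries, lines join the 2 libraries of a condition, and grey verticals part the classes. HSP90AB1 and HSPA8 sat at the top in every condition, and DNAJB4, DNAJA3 and SERPINH1 at the bottom.

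Each siRNA was compared with NC to ask what it did to the chaperone genes, and the siRNAs were compared with each other because they were meant to silence the same RNA. With edgeR's quasi-likelihood test over all genes and Benjamini-Hochberg adjustment (called at an adjusted p under 0.05), 1 of the 32 tested members rose under si-circ235-1 (DNAJA1), a share of 3.12% where 5.88% of all genes were called (2.24% higher and 3.64% lower). No member was called lower, although 11 had an unadjusted p under 0.05, as had 25.3% of all genes, and 3 of the 11 had a fold change below 0. DESeq2 called 6 members higher and 1 lower in this comparison, and 10.9% of the genes it gave an adjusted p. The median log2 fold change of the members was 0.24, against -0.03 over all genes, with 22 above and 10 below 0. It was 0.11 without si-circ235-1 replicate 1. Under si-circ235-2, 1 member rose (HSPA9) and 4 fell (HSPB1, CDC37, HSPE1 and CCT7), 15.6% of the members where 31.4% of all genes were called (15.7% higher and 15.7% lower). An unadjusted p under 0.05 was reached by 10 members and by 43.1% of all genes. Their median was -0.09 beside 0.00 over all genes (-0.004), and ran from -0.16 without NC replicate 1 to -0.03 without NC replicate 2, with -0.14 when si-circ235-2 replicate 1 was left out. In si-circ235-2 against si-circ235-1, 1 member was higher (DNAJA3) and 9 were lower, 31.2% of the members where 39.7% of all genes were called (21.1% higher and 18.6% lower). Here 13 members and 48.9% of all genes had an unadjusted p under 0.05. The median of the members was -0.26 here and that of all genes 0.04, and the first ran from -0.37 without si-circ235-2 replicate 1 to -0.16 without si-circ235-2 replicate 2. In this fit none of the 3 shares was above the background. After removal of the length and GC trend described below, the shares were 25% of the members beside 13.7% of all genes, 28.1% beside 25.9% and 50% beside 40.4%. In the 2 comparisons with si-circ235-2, more members were called lower than higher, while all genes were called in near equal numbers each way (2270 higher and 2260 lower against NC, 3047 higher and 2678 lower against si-circ235-1). With library totals in place of TMM factors, the median over all genes became 0.25 against NC and 0.37 against si-circ235-1, and that of the members 0.16 and 0.07, above 0 but below all genes. The members then split into 4 higher and 2 lower against NC (18.8% called), where 22% of all genes were called higher and 8.98% lower. Against si-circ235-1 they split into 3 higher and 5 lower (25%), where 31.5% of all genes were called higher and 10.4% lower. With library totals, the calls of DNAJA1 under si-circ235-1, of HSPE1 and CCT7 under si-circ235-2, and of HSPH1, HSP90AA1, DNAJA1 and DNAJB4 between the siRNAs were lost. The comparisons share libraries and are not independent of each other.

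**Figure D2:**
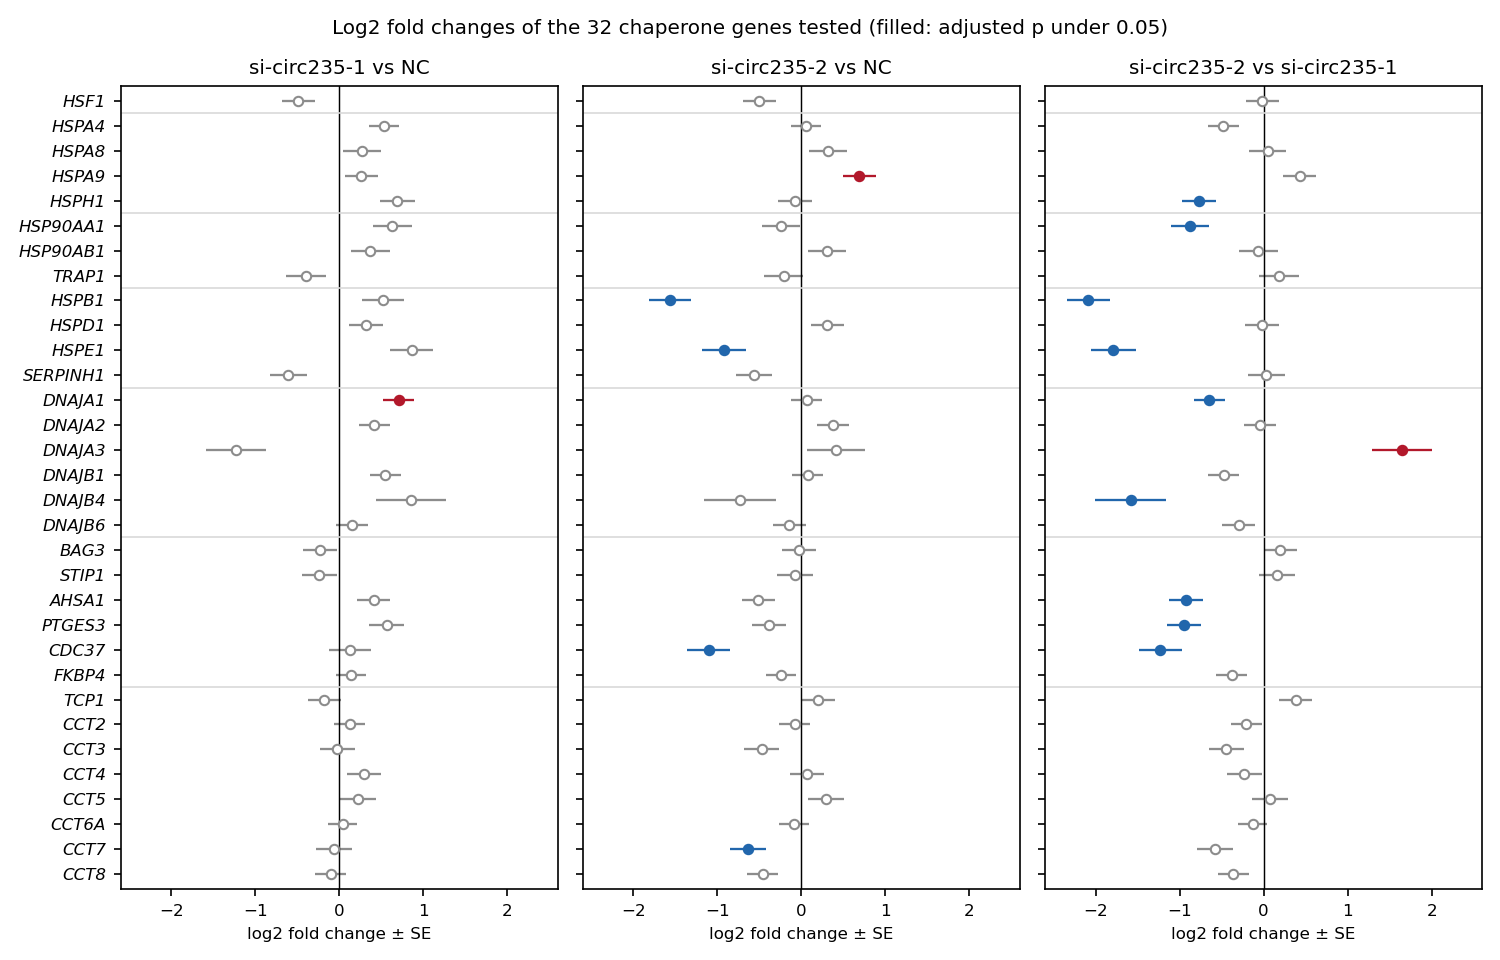
Log2 fold change with its standard error for the 32 tested members in the 3 comparisons between conditions, from the fit over 6 libraries. Filled points passed an adjusted p under 0.05, red higher and blue lower, and grey lines part the classes. The 9 filled blue points of the right panel belong to HSPH1, HSP90AA1, HSPB1, HSPE1, DNAJA1, DNAJB4, AHSA1, PTGES3 and CDC37.

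HSF1, the factor that switches on heat shock genes, was at 219 and 180 CPM in NC, 152 and 133 CPM in si-circ235-1 and 155 and 127 CPM in si-circ235-2. All 4 si-circ235 libraries lay below both NC libraries. The log2 fold change was -0.49 (SE 0.20, adjusted p = 0.149) under si-circ235-1 and -0.50 (SE 0.20, adjusted p = 0.072) under si-circ235-2. In the fit reported edgeR called neither. With the replicate number as a block, HSF1 was called lower under si-circ235-2 (adjusted p = 0.0324), although the numbers do not pair the libraries. HSF1 has a GC content of 64.7%, and once a trend of counts over transcript length and GC content was taken out its log2 fold changes were -0.15 and -0.09. Some of its exons overlap DGAT1 on the other strand, and 1.8% of the 75-base windows of its transcript are also found in DGAT1.

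Of the HSP70 and HSP110 genes, HSPA9 rose under si-circ235-2. HSPA9, also called mortalin, is the HSP70 of the mitochondrial matrix. Its level was 410 and 458 CPM in NC, 549 and 493 CPM in si-circ235-1 and 728 and 673 CPM in si-circ235-2. The groups did not overlap, and the log2 fold change of si-circ235-2 against NC was 0.69 (SE 0.20, adjusted p = 0.0225). The call was lost when either NC or either si-circ235-2 library was left out (adjusted p = 0.159, 0.0514, 0.0995 and 0.055) and after removal of the trend over length and GC (log2 fold change 0.20, adjusted p = 0.328). Between the siRNAs HSPA9 was not called (0.43, adjusted p = 0.105), though it was called higher with si-circ235-2 by library totals (0.76, adjusted p = 0.00866) and when these conditions were fitted alone (0.45, adjusted p = 0.0498), and was -0.03 with the trend removed. HSPH1, the HSP110 that exchanges nucleotide on HSP70, was at 117 and 133 CPM in NC, 185 and 219 CPM in si-circ235-1 and 99.3 and 138 CPM in si-circ235-2. It was lower with si-circ235-2 than with si-circ235-1 by 0.77 on the log2 scale (-0.77, SE 0.21, adjusted p = 0.0138), while its log2 fold change of 0.69 under si-circ235-1 was not called in this fit (SE 0.21, adjusted p = 0.072) but was by DESeq2 and in 5 other of the 14 alternatives. The difference between the siRNAs was -0.65 without si-circ235-1 replicate 2 (adjusted p = 0.101) and -0.56 without si-circ235-2 replicate 1 (adjusted p = 0.132), and in both cases lost its call.

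HSPA4, an HSP110 relative, had a similar order of levels, with 235 and 244 CPM in NC, 344 and 352 CPM in si-circ235-1 and 237 and 262 CPM in si-circ235-2. In the fit reported edgeR did not call it (adjusted p = 0.096 under si-circ235-1 and 0.0547 between the siRNAs). DESeq2 called HSPA4 in both of these comparisons, and so did edgeR after removal of the length and GC trend (0.48, adjusted p = 0.0359, and -0.87, adjusted p = 0.0011). HSPA8, the constitutive cytosolic HSP70, was the most abundant of the class, at 1619 and 1793 CPM in NC, 2115 and 2000 CPM in si-circ235-1 and 2259 and 1995 CPM in si-circ235-2. It was not called by edgeR in this fit, and with library totals it was called higher under si-circ235-2. The inducible HSP70 genes could not be followed. HSPA1A had 1 and 0 counts in NC, 3 and 0 in si-circ235-1 and 0 and 3 in si-circ235-2, and HSPA1B had 0 in all 6 libraries. The 2 genes are near-identical copies in the major histocompatibility region of chromosome 6, and 71.2% of the 75-base windows of HSPA1A are also in HSPA1B. How reads that match more than 1 place were counted is not given in the sources used here, so these values cannot be read as the level of inducible HSP70.

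Among the HSP90 genes, no member was called against NC by edgeR, and HSP90AA1, the inducible cytosolic isoform, was lower with si-circ235-2 than with si-circ235-1. Its level was 677 and 708 CPM in NC, 1048 and 1096 CPM in si-circ235-1 and 475 and 694 CPM in si-circ235-2. Both si-circ235-1 libraries lay above the other 4, and the si-circ235-2 libraries differed from each other more than those of the other conditions. The log2 fold change between the siRNAs was -0.88 (SE 0.23, adjusted p = 0.0123). It was -0.85 without si-circ235-1 replicate 2 (adjusted p = 0.0761) and -0.63 without si-circ235-2 replicate 1 (adjusted p = 0.11). Under si-circ235-1 against NC it was 0.63 (SE 0.23, adjusted p = 0.119), which was called by DESeq2 and not by edgeR. HSP90AB1, the constitutive isoform, had 1334 and 1543 CPM in NC, 2054 and 1665 CPM in si-circ235-1 and 1872 and 1685 CPM in si-circ235-2, with no call. TRAP1, the mitochondrial HSP90, lay between 51.8 and 92.7 CPM over the 6 libraries and was not called, and 18.0% of its windows are shared with the overlapping gene DNASE1.

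HSPB1 was lower with si-circ235-2 than in NC or with si-circ235-1. It encodes HSP27, a small heat shock protein that holds unfolded clients without ATP, and lies at chr7:76302544-76304295 (GRCh38). Its level was 505 and 306 CPM in NC, 554 and 611 CPM in si-circ235-1 and 151 and 124 CPM in si-circ235-2. The NC libraries differed from each other, and both si-circ235-2 libraries lay far below all others. HSPB1 fell under si-circ235-2 (log2 fold change -1.56, SE 0.25, adjusted p = 0.0028), to 0.339 of its NC level. It was also lower with si-circ235-2 than with si-circ235-1 (-2.08, SE 0.26, adjusted p = 0.000563). Both calls held under all 14 alternative settings tried. The size of the change depended on the length and GC trend, with log2 fold changes of -0.69 and -1.49 once it was removed. HSPB1 is short (1455 nt) and rich in G and C (64.3%). Under si-circ235-1 its log2 fold change of 0.52 was not called (SE 0.25, adjusted p = 0.216), and it was 0.93 without NC replicate 1 and 0.24 without NC replicate 2.

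HSPE1, the lid of the mitochondrial HSP60 chamber, had 43.8 and 36.8 CPM in NC, 53.2 and 93.6 CPM in si-circ235-1 and 21.5 and 21.0 CPM in si-circ235-2. The 3 conditions did not overlap. HSPE1 fell under si-circ235-2 (log2 fold change -0.92, SE 0.26, adjusted p = 0.0219) and was lower than with si-circ235-1 (-1.79, SE 0.26, adjusted p = 0.00096). The comparison with NC lost its call without NC replicate 1 (-0.80, adjusted p = 0.153) and after removal of the length and GC trend (-0.67, adjusted p = 0.0605). HSPD1, which forms the chamber itself, was at 488 and 549 CPM in NC, 706 and 594 CPM in si-circ235-1 and 650 and 637 CPM in si-circ235-2. With si-circ235-2 it was 0.31 on the log2 scale against NC (SE 0.20, adjusted p = 0.264). With library totals in place of TMM factors HSPD1 was called higher, at the threshold (0.56, adjusted p = 0.05), and HSPE1 was not called (-0.66, adjusted p = 0.0784). The difference between the 2 genes' fold changes was not tested. Of the 75-base windows of the HSPE1 transcript, 43.9% are found in other genes and 21.7% in HSPD1, so the level of HSPE1 is uncertain. Under si-circ235-1 its log2 fold change of 0.87 was not called (SE 0.26, adjusted p = 0.0701), while 7 of the 14 alternatives, DESeq2 among them, called it higher. The value was 0.40 without si-circ235-1 replicate 2 (adjusted p = 0.482) and 1.21 without si-circ235-1 replicate 1. Its 26 named pseudogenes held 54 counts in all, or 1.18% of the sum with HSPE1. SERPINH1 encodes HSP47, a collagen chaperone of the endoplasmic reticulum. It was at 32.2 and 32.9 CPM in NC, 24.1 and 18.9 CPM in si-circ235-1 and 22.8 and 21.1 CPM in si-circ235-2. All 4 si-circ235 libraries lay below NC, and neither log2 fold change was called (-0.60, SE 0.22, adjusted p = 0.114, and -0.57, SE 0.21, adjusted p = 0.0652).

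In the HSP40 class, DNAJA1 was the member called under si-circ235-1. DNAJA1 is an abundant cytosolic J-domain partner of HSP70, and its start lies within its printed stretch. Its level was 291 and 308 CPM in NC, 492 and 486 CPM in si-circ235-1 and 319 and 307 CPM in si-circ235-2. The si-circ235-1 libraries stood clear of the other 4, which overlapped. DNAJA1 rose under si-circ235-1 (log2 fold change 0.71, SE 0.18, adjusted p = 0.047) and was lower with si-circ235-2 than with si-circ235-1 (-0.65, SE 0.18, adjusted p = 0.017). The rise lost its call without any of NC replicate 1, NC replicate 2, si-circ235-1 replicate 1, si-circ235-1 replicate 2 or si-circ235-2 replicate 1 (adjusted p = 0.172, 0.135, 0.121, 0.235 and 0.0512), although its size stayed between 0.62 and 0.79 over all settings. The difference between the siRNAs lost its call when any si-circ235-1 or si-circ235-2 library was left out (-0.62 to -0.68, adjusted p = 0.0667 to 0.106).

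DNAJA3 moved the other way. It encodes the mitochondrial J-domain protein TID1, a partner of HSPA9, and was at 19.7 and 32.1 CPM in NC, 15.4 and 6.81 CPM in si-circ235-1 and 33.8 and 35.3 CPM in si-circ235-2. It was higher with si-circ235-2 than with si-circ235-1 (1.65, SE 0.36, adjusted p = 0.005), a call kept under all 14 settings (2.34 without si-circ235-1 replicate 1). Against NC it was -1.23 under si-circ235-1 (SE 0.36, adjusted p = 0.0665), which was not called in this fit and was in 6 of the 14 alternatives, DESeq2 among them. That value rested on single libraries, at -1.93 without si-circ235-1 replicate 1 (adjusted p = 0.0376), -0.75 without si-circ235-1 replicate 2 (adjusted p = 0.365) and -0.80 without NC replicate 2 (adjusted p = 0.318). DNAJB4, a low HSP40 of the cytosol, was at 6.36 and 6.30 CPM in NC, 10.7 and 12.2 CPM in si-circ235-1 and 1.77 and 5.78 CPM in si-circ235-2. It was lower with si-circ235-2 than with si-circ235-1 (-1.58, SE 0.43, adjusted p = 0.0137), and the value was -0.99 when si-circ235-2 replicate 1 was left out and -2.69 when si-circ235-2 replicate 2 was. In the absence of si-circ235-1 replicate 2 it was not called (-1.49, adjusted p = 0.0813), and with the trend removed it was -0.93. DNAJB1, a classical heat-inducible HSP40, was at 51.4 and 47.9 CPM in NC, 75.8 and 69.5 CPM in si-circ235-1 and 56.1 and 48.4 CPM in si-circ235-2. Its log2 fold change of 0.55 under si-circ235-1 was not called (SE 0.18, adjusted p = 0.0945). Between the siRNAs DNAJB1 was at -0.475 (SE 0.18, adjusted p = 0.0582) and not called in the fit reported. It was called lower there with RLE size factors, with a replicate block and with these 2 conditions alone. The same held with the trend removed (-0.51, adjusted p = 0.0101). DNAJA2 (131 to 203 CPM over the libraries) and DNAJB6 (370 to 514 CPM) were called in no comparison by edgeR in the fit reported or by DESeq2. After removal of the length and GC trend DNAJB6 was called lower under si-circ235-2 (-0.59, adjusted p = 0.0179) and between the siRNAs (-0.90, adjusted p = 0.0016). The removal took DNAJB6 as 7992 nt, its longest annotated transcript, and these calls rest on that length. With library totals DNAJA2 was called higher under si-circ235-2.

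Among the 6 co-chaperones, CDC37 fell under si-circ235-2. CDC37 brings protein kinases to HSP90. Its level was 569 and 365 CPM in NC, 575 and 444 CPM in si-circ235-1 and 242 and 193 CPM in si-circ235-2. NC and si-circ235-1 overlapped, and both si-circ235-2 libraries lay below them. The log2 fold change was -1.10 against NC (SE 0.25, adjusted p = 0.0091) and -1.23 against si-circ235-1 (SE 0.25, adjusted p = 0.0038). Against NC it was -0.76 without NC replicate 1 (adjusted p = 0.103) and -0.49 after removal of the length and GC trend (adjusted p = 0.0445). PTGES3 encodes p23, which closes the HSP90 cycle. It was at 408 and 442 CPM in NC, 609 and 649 CPM in si-circ235-1 and 368 and 285 CPM in si-circ235-2. AHSA1, the activator of the HSP90 ATPase, was at 191 and 149 CPM in NC, 242 and 211 CPM in si-circ235-1 and 129 and 109 CPM in si-circ235-2. For both genes the 3 conditions did not overlap and ran in the order si-circ235-1, NC, si-circ235-2.

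PTGES3 was lower with si-circ235-2 than with si-circ235-1 (-0.95, SE 0.21, adjusted p = 0.0048), and so was AHSA1 (-0.93, SE 0.20, adjusted p = 0.0047). Against NC edgeR called neither in the fit reported. The log2 fold changes were 0.57 for PTGES3 (adjusted p = 0.117) and 0.41 for AHSA1 (adjusted p = 0.221) under si-circ235-1. They were -0.38 (adjusted p = 0.176) and -0.51 (adjusted p = 0.0722) under si-circ235-2. Under si-circ235-2 PTGES3 ran from -0.58 to -0.21 without 1 or the other si-circ235-2 library, and AHSA1 was -0.33 without NC replicate 1. With the trend removed both were called higher under si-circ235-1 and PTGES3 lower under si-circ235-2, DESeq2 called PTGES3 higher under si-circ235-1, and with a replicate block AHSA1 was called lower under si-circ235-2. The differences of PTGES3, AHSA1, CDC37, HSPB1, HSPE1 and DNAJA3 between the siRNAs were called in all 14 alternative settings. STIP1, which bridges HSP70 and HSP90, lay between 272 and 401 CPM, FKBP4, an HSP90-bound immunophilin, between 110 and 165 CPM, and BAG3, an HSP70 exchange factor of selective autophagy, between 42.2 and 59.5 CPM. None of these 3 was called in any comparison by edgeR in the fit reported or by DESeq2. With the trend removed FKBP4 was called lower under si-circ235-2 (-0.55, adjusted p = 0.0163) and between the siRNAs (-0.82, adjusted p = 0.0016).

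The CCT chaperonin is a double ring of 8 kinds of subunit. In the fit reported edgeR called 1 of the 8, in 1 of the 3 comparisons between conditions. That was 12.5% under si-circ235-2, beside 31.4% of all genes, and 0 under si-circ235-1 and between the siRNAs, beside 5.88% and 39.7%. Under si-circ235-1 no subunit was called by edgeR or DESeq2 and none had an unadjusted p under 0.05, with log2 fold changes from -0.18 to 0.29. Under si-circ235-2, CCT7 fell (-0.64, SE 0.22, adjusted p = 0.0441), from 732 and 597 CPM in NC and 699 and 575 CPM in si-circ235-1 to 465 and 389 CPM in si-circ235-2. The NC and si-circ235-1 libraries overlapped, and both si-circ235-2 libraries lay below them. This call was lost when any 1 of the 6 libraries was left out (log2 fold change -0.49 to -0.78, adjusted p = 0.055 to 0.253). CCT8 (458 and 452 CPM in NC, 333 and 330 CPM in si-circ235-2) and CCT3 (752 and 638 CPM, 537 and 467 CPM) had log2 fold changes of -0.46 and -0.47 under si-circ235-2 that edgeR did not call (adjusted p = 0.0785 and 0.109), and DESeq2 called CCT8 lower. TCP1, CCT2, CCT4, CCT5 and CCT6A had log2 fold changes between -0.09 and 0.29 against NC under si-circ235-2 and were not called. CCT4 and CCT5 were below 0 after removal of the trend, and CCT2 and CCT6A above 0 with library totals. Of the CCT5 windows, 47.5% are shared with other genes, mostly the antisense gene AC012640.4, and of the TCP1 windows 14.8%, mostly with ACAT2. Between the siRNAs no subunit was called by edgeR in the fit reported, 1 had an unadjusted p under 0.05 (CCT7), and DESeq2 called CCT7 lower. Other settings of edgeR called CCT7 there too, CCT3 lower with the trend removed and TCP1 higher with library totals.

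**Figure D3:**
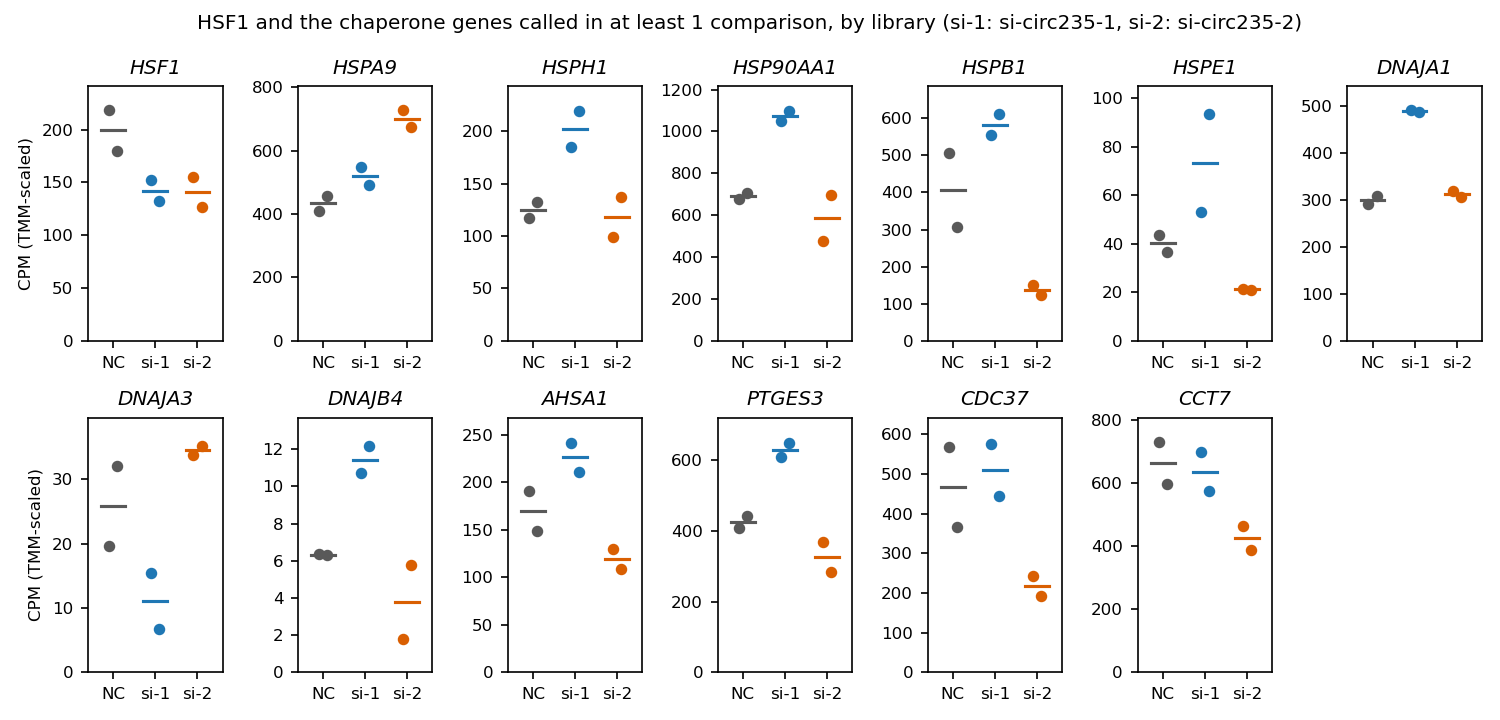
Level of HSF1 and of the 12 members called in at least 1 comparison between conditions, as TMM-scaled CPM on linear axes from 0. Points are libraries and bars the mean of the 2. HSPB1 in si-circ235-2 (151 and 124) sat below all other libraries, and DNAJA1 in si-circ235-1 (492 and 486) above them.

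Transcript length moved with the response to si-circ235-2 over the whole table. Across 14386 genes with a known length, Spearman's rho between length of the longest transcript and log2 fold change was 0.442 for si-circ235-2 against NC, 0.041 for si-circ235-1 against NC and 0.355 between the siRNAs, which describes genes and not replicates. Genes under 1500 nt had a median of -0.63 against NC with si-circ235-2, and genes of 5000 nt or more a median of 0.45. The members called lower under si-circ235-2 were shorter than the median of all genes tested (3354 nt), at 950 nt for HSPE1, 1455 nt for HSPB1, 1608 nt for CDC37 and 2031 nt for CCT7, and HSPA9, the member called higher, was longer (4727 nt). With a smooth trend over length and GC content removed from each library, 0 members were called higher and 9 lower under si-circ235-2 (1 and 4 without the removal). Of all genes 25.9% were called (11.2% higher and 14.7% lower), and 3 of the original 5 member calls were shared. The 9 were CCT7, CDC37, DNAJB6, FKBP4, HSPA4, HSPB1, HSPH1, PTGES3 and SERPINH1.

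Between the siRNAs, removal of the trend left all 10 calls in place and added 6 lower members (50% of the members, 40.4% of all genes), and the log2 fold change of HSP90AA1 went from -0.88 to -1.26. For si-circ235-1 against NC, whose fold changes followed GC content (rho -0.258) more than length, 8 members were called higher after removal, namely AHSA1, DNAJA1, DNAJB1, HSPA4, HSPB1, HSPE1, HSPH1 and PTGES3, and 0 lower. That was 25% of the members, beside 13.7% of all genes (8.26% higher and 5.41% lower). No record of preparation batches was at hand, so such batches and the conditions cannot be told apart.

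**Figure D4:**
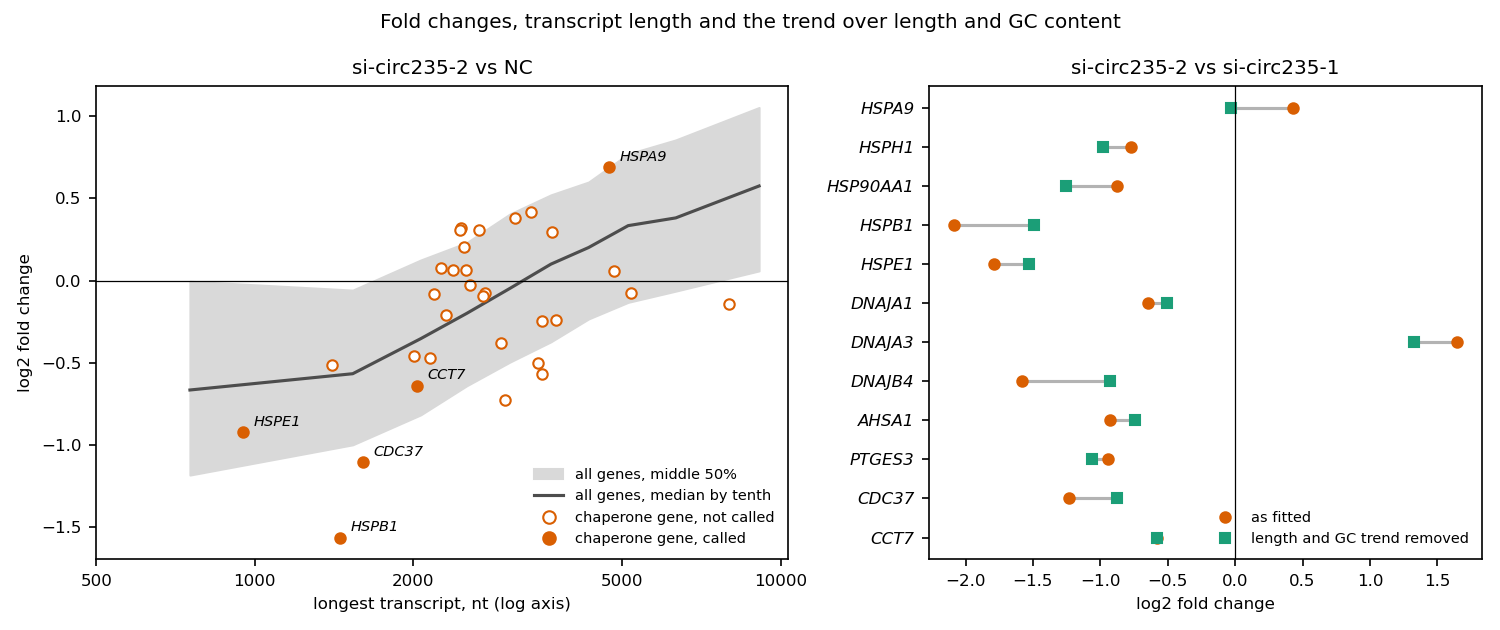
Left, log2 fold change of si-circ235-2 against NC over the length of the longest transcript (log axis), with the median and the middle 50% of all genes in 10 bins of length and the 32 members as circles, filled where called. Right, log2 fold change between the siRNAs of the 12 members called in at least 1 comparison, as fitted and with the trend over length and GC content removed. The medians ran from below 0 in the shortest bins to above 0 in the longest, and in the right panel HSPA9 was the member that moved from above to just below 0 (-0.03).

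The wider folding network was described by 7 lists with 90 other genes, of which 80 were tested. Under si-circ235-1, 5 were called higher and 3 lower (10% of those tested, 5.88% of all genes). Under si-circ235-2, 5 were called higher and 27 lower (40.0%, with 31.4% of all genes called), and between the siRNAs 6 were higher and 35 lower (51.2%, with 39.7% of all genes called). The median log2 fold change of these 80 genes was 0.10, -0.28 and -0.61 in the 3 comparisons. Leaving out any 1 NC or si-circ235-1 library lowered the number of the lists' genes called under si-circ235-1, and the share of all genes called fell as well. Without NC replicate 1 the median there was 0.18. Without NC replicate 1, 1 was called higher and 8 lower under si-circ235-2, where 5.1% of all genes were called. After removal of the length and GC trend the counts were 9 and 3, 4 and 21, and 8 and 36, beside 13.7%, 25.9% and 40.4% of all genes called. Without TMM factors they were 3 and 3, 6 and 21, and 14 and 25, with medians of 0.02, -0.01 and -0.27, beside 4.91%, 31% and 41.8% of all genes called.

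Against NC with si-circ235-2, 1 gene was called higher and 2 lower of 7 heat shock factors and regulators, 0 and 4 of 13 other HSP70 and exchange factor genes, 2 and 2 of 14 other J-domain genes and 1 and 3 of 14 mitochondrial folding genes and proteases. Of 7 other small heat shock proteins, 2 were tested and 1 was called lower. Of all genes 31.4% were called there, 15.7% in each direction.

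The upstream list held heat shock factors and their regulators. EP300, an acetyltransferase with HSF1 among its substrates, rose under si-circ235-2. It was at 24.3 and 33.5 CPM in NC, 21.6 and 19.0 CPM in si-circ235-1 and 87.1 and 95.7 CPM in si-circ235-2, a log2 fold change of 1.66 against NC (SE 0.21, adjusted p = 0.0018) and 2.17 against si-circ235-1 (SE 0.22, adjusted p = 0.000391). EP300 has a longest transcript of 9587 nt, and the value against NC was 1.04 with the trend removed. HSF4, a heat shock factor best known from the lens, fell from 15.2 and 6.97 CPM in NC to 4.72 and 2.73 CPM in si-circ235-2 (-1.58, SE 0.45, adjusted p = 0.0216). The 4.06 and 7.93 CPM of si-circ235-1 overlapped both conditions, and without NC replicate 1 the change was -0.92 and not called (adjusted p = 0.253), nor was it with the length and GC trend removed (-0.87, adjusted p = 0.137). HSBP1, which binds HSF1 and restrains it, fell as well (-0.85, SE 0.21, adjusted p = 0.0128), with no call without NC replicate 1 (-0.70) or si-circ235-2 replicate 2 (-0.72). With the trend removed HSBP1 was -1.60, but the removal took it as 8784 nt, its longest annotated transcript. The larger value rests on that length. HSF2 stayed between 16.5 and 19.6 CPM and was not called.

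Prefoldin, which hands unfolded actin and tubulin to CCT, and other assistants of CCT and tubulin folding made up a further list. Under si-circ235-2, 10 of its 17 tested genes were called lower and 0 higher, where 15.7% of all genes were called lower. An unadjusted p under 0.05 was reached by 10 of them and by 43.1% of all genes. DESeq2 called 10 lower, beside 16.3% of all genes with its adjusted p. Fewer of the list were called lower without NC replicate 1 and without si-circ235-2 replicate 2, as were fewer of all genes. Between the siRNAs 13 were called lower and 0 higher, where 18.6% of all genes were called lower, with a median log2 fold change of -0.97. With the trend removed, the counts were 9 lower and 0 higher against NC, and 10 lower and 1 higher between the siRNAs. Of all genes 25.9% and 40.4% were then called either way, 14.7% and 23.2% lower. The list is short in transcript length (median 1686 nt). Of all genes under 1500 nt 31.6% were called lower against NC with si-circ235-2, and of those from 1500 to 3000 nt 24.3%. Between the siRNAs these shares were 38.1% and 26.2%. The list was chosen with earlier results of these data known, so its counts describe it and do not test it. PFDN5, a prefoldin subunit, was at 410 and 266 CPM in NC, 359 and 468 CPM in si-circ235-1 and 142 and 113 CPM in si-circ235-2, and fell by 1.41 on the log2 scale against NC (-1.41, SE 0.25, adjusted p = 0.0036) and by 1.70 against si-circ235-1 (-1.70, SE 0.25, adjusted p = 0.00098).

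PFDN6, another subunit, fell under both siRNAs in the fit reported. It was at 70.9 and 27.6 CPM in NC, 15.3 and 10.2 CPM in si-circ235-1 and 9.20 and 7.27 CPM in si-circ235-2, so that all 4 si-circ235 libraries lay below NC. Against NC the log2 fold change was -1.95 with si-circ235-1 (SE 0.39, adjusted p = 0.0213) and -2.58 under si-circ235-2 (SE 0.41, adjusted p = 0.0026), with a wide gap between the NC libraries. Without NC replicate 1 the values were -1.12 (adjusted p = 0.128) and -1.75 (adjusted p = 0.0295), and under si-circ235-1 the call was also lost without either of its own libraries (adjusted p = 0.0596 and 0.228). TXNDC9, a thioredoxin-like regulator of CCT, was at 57.9 and 55.2 CPM in NC, 71.9 and 100 CPM in si-circ235-1 and 17.9 and 31.7 CPM in si-circ235-2, a difference of -1.79 between the siRNAs (SE 0.27, adjusted p = 0.00104).

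Among the other HSP90 co-chaperones, 1 of 13 was called higher and 5 lower under si-circ235-2 (46.2%, where 31.4% of all genes were called). FKBP8, an immunophilin of the mitochondrial outer membrane, fell from 727 and 409 CPM in NC to 153 and 126 CPM (-2.03, SE 0.27, adjusted p = 0.0018), with 544 and 534 CPM in si-circ235-1. FKBP5, the immunophilin of steroid receptor complexes, rose from 24.4 and 28.1 CPM to 50.4 and 55.4 CPM (1.01, SE 0.20, adjusted p = 0.0048), with 27.8 and 25.1 CPM in si-circ235-1. CACYBP, a co-chaperone with a role in protein turnover, moved in opposite directions under the siRNAs. It rose from 164 and 160 CPM in NC to 256 and 267 CPM under si-circ235-1 (0.69, SE 0.17, adjusted p = 0.0426, not called without any 1 of these 4 libraries, adjusted p = 0.0918 to 0.232, or with library totals, adjusted p = 0.0611) and fell to 90.8 and 87.5 CPM under si-circ235-2 (-0.86, SE 0.17, adjusted p = 0.0052). The J-domain gene DNAJC6, which uncoats clathrin vesicles, rose under si-circ235-2 (1.11, SE 0.22, adjusted p = 0.005). Without NC replicate 1 neither FKBP5 (0.91, adjusted p = 0.0623) nor DNAJC6 (1.02, adjusted p = 0.0633) was called. With the trend removed the values against NC were -1.11 for FKBP8, 0.49 for FKBP5 and 0.60 for DNAJC6. DNAJC9, a histone chaperone, was higher with si-circ235-2 than with si-circ235-1 (1.47, SE 0.22, adjusted p = 0.00101).

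**Figure D5:**
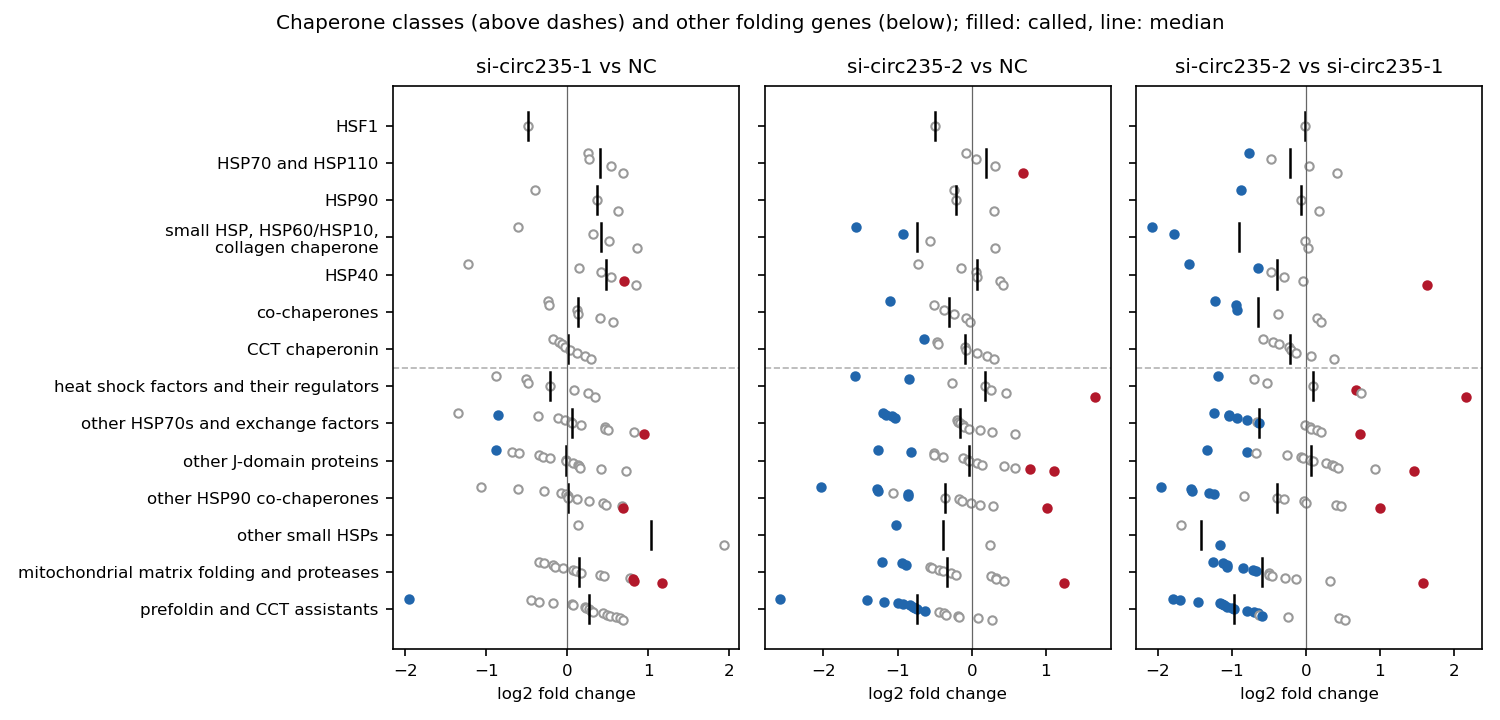
Log2 fold change of every tested gene in the 7 member classes (above the dashes) and the 7 lists of other folding genes (below) in the 3 comparisons. Points are genes, filled where called (red higher, blue lower), and black lines are list medians. In the right panel 13 of the 17 prefoldin and CCT assistant genes were called lower.

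When the 4 si-circ235 libraries were taken as 1 group against NC, edgeR called 0 of the 32 members and 0 of all genes, a background of 0% (9.57% of all genes had an unadjusted p under 0.05). The member SERPINH1 alone had an unadjusted p under 0.05 (log2 fold change -0.59, SE 0.22, adjusted p = 0.49), and DESeq2 called 0 members, beside 0.683% of all genes with its adjusted p. The median log2 fold change of the members was 0.03. In this fit the spread holds the difference between the siRNAs.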

How the data were processed

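RNA of T24 cells under 3 conditions (2 libraries each) was captured on oligo dT beads, and libraries kept no strand. The authors deposited raw read counts per gene, not normalized. The submitters' processing notes name FastQC, cutadapt, STAR and the build hg38, while the counting tool, its annotation and its handling of multiple matches were not given in the sources used here. Conditions came from the sample labels, and columns were matched to libraries by name.

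The quasi-likelihood test of edgeR 4.0.16 (R 4.3.3) was fitted with 1 mean per condition over all 6 libraries, after filterByExpr by condition and TMM scaling, and p-values were adjusted by Benjamini-Hochberg over 14415 genes (threshold 0.05). DESeq2 1.42.0 and the settings of the closing section were alternatives. The dependence of counts on the length and GC of each gene's longest annotated transcript was fitted per library with splines of 5 degrees of freedom and removed as offsets. Which transcript of a gene the cells expressed was not examined. Levels are CPM after TMM. Annotation was GENCODE 29 (GRCh38), which held 99.5% of the identifiers, and promoters were those of RefSeq (GRCh38.p14). Per class, HSF1 and up to 3 members with the largest fold change among those called are given in full. In the lists, called genes of at least 5 CPM and a log2 fold change of at least 1 are, up to 5 each way per comparison, and HSBP1, HSF2 and the smaller changes were added after their values were seen. Markers of epithelial, urothelial, mesenchymal, leukocyte and endothelial cells and of the response to double-stranded RNA were read as levels and with the same edgeR test. The members and lists were chosen with earlier results of these data known. On simulated data with a log2 change of 2, the test recovered 85.4%, 87.8% and 85.7% of changed genes in the comparisons si-circ235-1 against NC, si-circ235-2 against NC and between the siRNAs, and with a change of 1 it recovered 27.2%, 40.0% and 21.8%. Only 195 to 198 of 14036 to 14078 genes were changed, in 1 draw each, so these values do not rank the comparisons. Recovery where as many genes change as were called with si-circ235-2 (31.4% and 39.7%) was not tested. p-values measure the spread between the labelled replicates, whose separate origin beyond the label is not described. Some genes that the rule would name are not reported here.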

Additional observations from a re-analysis of the deposited data

How the results depend on the processing

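For each comparison between conditions 14 alternatives were tried and 13 with the 4 si-circ235 libraries pooled. With DESeq2, si-circ235-1 against NC had 6 members higher, 1 lower and 1336 genes called, and the pooled libraries 87 genes. Without TMM factors 0 members were higher under si-circ235-1 (708 genes called), 4 higher and 2 lower under si-circ235-2 (4467 genes), and 3 higher and 5 lower between the siRNAs (6030 genes). With no filter on low counts si-circ235-1 had 3 members higher, 1 lower and 1678 genes called, and the pooled libraries 4 genes. With the length and GC trend removed, 8 members were higher and 1966 genes called under si-circ235-1, 0 higher and 9 lower under si-circ235-2 (3724 genes), and 15 lower between the siRNAs (5812 genes). Fitted on 2 conditions alone, si-circ235-1 had 4 higher, 1 lower and 1642 genes called, and 2 members were higher between the siRNAs (5608 genes). Against a log2 fold change of 0.5, 0 members and 81 genes were called under si-circ235-1, 0 higher, 2 lower and 1876 genes under si-circ235-2, and 3188 genes between the siRNAs.

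Leaving out 1 library at a time gave 0 to 3 members higher, 0 to 1 lower and 0 to 1482 genes called under si-circ235-1, with 0 genes without si-circ235-1 replicate 2. Under si-circ235-2 it gave 0 to 1 higher, 1 to 4 lower and 769 to 4240 genes, the lowest without NC replicate 1. Between the siRNAs it gave 5 to 9 lower and 2817 to 5558 genes, the lowest without si-circ235-1 replicate 2. A lone library was assumed to vary like the other conditions. Apart from the construction of fewer libraries or a stricter threshold, the causes were not tested. In the pooled comparison 0 members were called in all 13.

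The replicate numbers did not pair the samples (correlations of deviations -0.0943, 0.149 and 0.139). With a replicate block, 2 members were called higher under si-circ235-1 (937 genes), 1 higher and 6 lower under si-circ235-2 (4750 genes), and 1 higher and 12 lower between the siRNAs (6043 genes), the additions under si-circ235-2 being AHSA1 and HSF1. Without TMM factors the calls of DNAJA1, CACYBP, GRPEL2 and PPARG under si-circ235-1, of CCT7, HSPE1 and KRT7 under si-circ235-2 and of DNAJA1, DNAJB4, HSPH1 and HSP90AA1 between the siRNAs were lost. Fitted on 2 conditions alone CCT7 and DNAJB4 lost theirs, and with RLE size factors DNAJB2 did. No called fold change given in the text changed sign. Against NC with si-circ235-2, CCT4 and CCT5 became -0.058 and -0.098 with the trend removed, CCT2 and CCT6A became 0.17 and 0.16 without TMM factors, and with 1 library left out CCT4 ran from -0.12 (without si-circ235-2 replicate 1) to 0.227 and CCT2 from -0.205 to 0.032 (without si-circ235-2 replicate 2). TCP1 under si-circ235-1 ran from -0.34 to 0.014 (without NC replicate 2), and HSPA9 between the siRNAs became -0.029 with the trend removed. EPCAM between the siRNAs ran from -0.147 (without si-circ235-2 replicate 2) to 0.441 with 1 library left out. All of these missed the threshold as reported and under the settings just named, and HSPA9 passed it between the siRNAs without TMM factors and with 2 conditions alone. Of simulated log2 changes of 1 at most 40.0% were recovered in any comparison, with 195 to 197 genes changed. That is far fewer than were called with si-circ235-2, so the share may not carry over to these data.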

Other observations

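Mitochondrial folding genes and proteases beyond HSPA9, HSPD1 and HSPE1 formed another list. Under si-circ235-1, 3 of 14 tested genes were called higher and 0 lower by edgeR, where 5.88% of all genes were called. At an unadjusted p under 0.05 there were 6, beside 25.3% of all genes. DESeq2 called 4 higher and 0 lower, beside 10.9% of all genes with its adjusted p. CLPB, a disaggregase of the intermembrane space, was at 14.2 and 12.96 CPM in NC, 31.2 and 30.4 CPM in si-circ235-1 and 17.5 and 16.5 CPM in si-circ235-2. It rose under si-circ235-1 (log2 fold change 1.18, SE 0.22, adjusted p = 0.0157), and the groups did not overlap. LONP1, the main protease of the matrix, rose from 223 and 165 CPM to 367 and 315 CPM (0.81, SE 0.21, adjusted p = 0.0472) and was at 154 and 132 CPM in si-circ235-2. GRPEL2, a nucleotide exchange factor of HSPA9, was the third (0.82, SE 0.21, adjusted p = 0.0479). None of the 3 was called when any 1 NC or si-circ235-1 library was left out (adjusted p = 0.0531 to 0.318), and GRPEL2 was not called with library totals (adjusted p = 0.1).

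Between the siRNAs, 7 of the 14 were called lower and 1 higher, where 39.7% of all genes were called, and the median log2 fold change was -0.59. The counts were 9 lower and 1 higher with the length and GC trend removed (40.4% of all genes called) and 4 lower and 2 higher without TMM factors (41.8%). AFG3L2, a protease of the inner membrane, was the gene called higher (1.59, SE 0.33, adjusted p = 0.0037), at 29.4 and 13.6 CPM in si-circ235-1 and 63.8 and 65.1 CPM in si-circ235-2, beside 21.9 and 32.6 CPM in NC, and its value was 2.25 without si-circ235-1 replicate 1. In the HSP70 lists, ST13, which stabilises the client-bound state of HSP70, rose under si-circ235-1 (0.95, SE 0.19, adjusted p = 0.0223), from 282 and 268 CPM to 488 and 571 CPM, and was at 274 and 240 CPM in si-circ235-2. BAG6 fell under si-circ235-1 (-0.85, SE 0.20, adjusted p = 0.0356), as did DNAJB2, a gene of the J-domain list (-0.87, SE 0.23, adjusted p = 0.0486). These 3 calls were lost without any 1 NC or si-circ235-1 library (adjusted p = 0.0508 to 0.317). With the length and GC trend removed BAG6 was -0.54 and DNAJB2 -0.58, the second not called (adjusted p = 0.0526). Of the 10 genes of the response to double-stranded RNA, IFNB1 was at 0 in every library, and ISG15, the most abundant, was at 79.2 and 46.1 CPM in NC, 59.7 and 84.1 CPM in si-circ235-1 and 34.9 and 25.5 CPM in si-circ235-2. ISG15 was lower under si-circ235-2 than in NC (-1.05, adjusted p = 0.0181), with no call without NC replicate 1 (-0.62, adjusted p = 0.21) or si-circ235-2 replicate 2 (adjusted p = 0.0535) or with the length and GC trend removed (-0.14), and lower than with si-circ235-1 (-1.25, adjusted p = 0.00598), with no call without si-circ235-1 replicate 2 (adjusted p = 0.0688). The list's summed level ran from 83.6 to 160 CPM. Of its 7 tested genes ISG15 alone was called in these comparisons, where 31.4% and 39.7% of all genes were called. Against NC with si-circ235-2, 3 of the 7 lay above 0 and 4 below, and between the siRNAs all 7 lay below.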
